A study of Oryza sativa with 18 samples.

Results

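The flag leaf of a rice line that overexpresses OsPHO1;2 (OE) was compared with that of the wild type (WT) at 15DAF, read in the usual way as days after flowering. The comparison rests on 6 libraries, OE 15DAF replicates 1 to 3 and WT 15DAF replicates 1 to 3, out of 18 in the series. They were chosen by their genotype and stage labels. The other 12 libraries hold the mutant line Ospho1;2-Ko1 (Ko1) at 15DAF and all 3 genotypes at 5DAF, with 3 libraries in each group. All plants grew in a paddy field, and RNA came from flag leaf during grain filling. The labels give 1 OE line and 1 Ko1 line, with no cultivar named for any genotype. The promoter that drives the transgene, and whether a library holds 1 leaf or a pool, is not stated in the labels. The labels do not say that replicates were separate plants, so p-values measure the spread between these libraries, which may be technical.

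PHO1 proteins are membrane proteins that export inorganic phosphate (Pi) from cells, and they carry an SPX domain that senses cellular phosphate status. In rice, OsPHO1;2 is known for passing phosphate from the root to the shoot and for moving it during grain filling. When phosphate runs short, MYB factors of the PHR family switch on SPX genes, phosphate transporters, acid phosphatases, lipid-remodelling enzymes and the non-coding RNA IPS1. The flag leaf is the main source of sugar for the filling grain, and it later breaks down its own photosynthetic machinery.

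Total counts ran from 14747531 to 16299258 in the OE libraries and from 13622835 to 18264909 in the WT libraries. Across 19496 genes the correlation of log expression lay between 0.983 and 0.985 within OE, between 0.987 and 0.99 within WT, and between 0.976 and 0.985 for pairs of an OE and a WT library. The leaf markers were present in both genotypes. Chlorophyll a/b-binding genes summed to 15098–16111 CPM (counts scaled to library size) in OE and 17200–21970 in WT, and Rubisco small subunit genes to 2435–3654 CPM in OE and 3453–4129 in WT. Glutelin and prolamin genes, which mark developing grain, summed to 11.6–15.0 CPM in OE and 12.1–12.9 CPM in WT. At 5DAF the library labelled WT replicate 3 stood apart from its group, so values at 5DAF are given with and without it. IPS1 read 200 CPM there, against 0 and 0.0766 CPM in the other WT 5DAF libraries and 124, 142 and 363 CPM in Ko1 at 5DAF. No 5DAF library entered the 15DAF test.

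The targeted gene was higher in every OE library than in any WT library at 15DAF, but the OE libraries were far from each other. OsPHO1;2 (LOC_Os02g56510, chromosome 2, 34609408–34615666) read 17.995, 4.75 and 29.5 CPM in OE, 6.10, 6.14 and 6.07 CPM in Ko1, and 1.78, 2.58 and 3.25 CPM in WT. OE replicate 2 lay below all 3 Ko1 libraries and just above the highest WT library. The means were 17.4 ± 12.4 CPM in OE and 2.54 ± 0.737 CPM in WT (SD, n = 3 each), a ratio of 6.85. The log2 fold change was 2.78 with an SE of 0.53 and a 95% interval of 1.61 to 3.94 (edgeR adjusted p = 0.150), short of the threshold of 0.05. Without OE replicate 2 it was 3.22 and passed (edgeR adjusted p = 0.00219). DESeq2 also called it (adjusted p = 1.68e-05). The exact two-sided permutation test gave p = 0.1, the smallest value that 3 against 3 libraries allow. The counts are not known to be strand-specific, so an antisense transcript at this locus would be counted with it.

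No phosphate gene of the OE leaf passed the test, OsPHO1;2 included. Of 36 genes of phosphate transport and the Pi-starvation response, 31 were tested and 0 passed (0.138% of all genes did), and their median log2 fold change was 0.00, beside 0.01 over all 19496 genes tested. All OE libraries lay above all WT libraries in 3 of the 31 (7.32% over all genes) and below in 2 (8.22% over all genes). A log2 fold change of at least 1 in size was fitted for 7 of the 31, against 3.15% of all genes. Besides OsPHO1;2 and SPX2 these were SPX3, SPX5, the transporter genes PT2 and PT3 and MGD2, a galactolipid synthase gene. Those 5 genes read at most 0.754 CPM in every OE and WT library, so a few counts set their fitted folds, and at least 1.01 CPM in every Ko1 library. The values of the 2 PHO1 paralogues overlapped between the genotypes. OsPHO1;1 read 3.75, 3.21 and 2.51 CPM in OE and 2.14, 2.65 and 2.39 CPM in WT. OsPHO1;3 read 19.3, 7.89 and 4.02 CPM in OE and 8.48, 15.2 and 12.1 CPM in WT. In bulk leaf RNA, fewer cells of a type and less RNA per cell cannot be told apart.

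SPX proteins restrain PHR factors, and among their genes SPX2 lay above WT in every OE library. SPX2 read 30.9, 22.7 and 20.4 CPM in OE, 91.6, 59.5 and 169 CPM in Ko1, and 10.9, 9.72 and 13.3 CPM in WT. The OE and WT groups did not overlap, as was so for 15.5% of all genes, and the log2 fold change was 1.13 with an SE of 0.33 (edgeR adjusted p = 0.758). It passed when only the 6 OE and WT libraries were fitted (edgeR adjusted p = 0.0469). SPX1 read 16.6, 10.5 and 17.8 CPM in OE, 280, 249 and 526 CPM in Ko1, and 15.5, 17.9 and 16.7 CPM in WT. For SPX1 the OE and WT values overlapped, and Ko1 lay above both. SPX4 read 29.3, 28.9 and 24.6 CPM in OE and 26.1, 26.4 and 36.9 CPM in WT.

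SPX-MFS1 and SPX-MFS2 encode SPX proteins with a transporter domain. SPX-MFS1 read 94.2, 71.5 and 147 CPM in OE, 4.46, 8.14 and 7.04 CPM in Ko1, and 61.8, 72.0 and 61.5 CPM in WT (log2 fold change of OE against WT 0.69, SE 0.25, edgeR adjusted p = 0.880). SPX-MFS2 read 337, 291 and 263 CPM in OE, 1184, 890 and 1472 CPM in Ko1, and 204, 268 and 203 CPM in WT. OE replicate 2 of SPX-MFS1 and OE replicate 3 of SPX-MFS2 fell within the range of WT.

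Of the phosphate uptake transporters, PT4 read 66.7, 57.9 and 66.5 CPM in OE, 184, 189 and 205 CPM in Ko1, and 81.4, 75.1 and 91.9 CPM in WT. All OE libraries lay below all WT libraries, as was so for 8.22% of all genes, and the log2 fold change was −0.37 with an SE of 0.12 (edgeR adjusted p = 0.808). PT8 read 286, 305 and 278 CPM in OE and 288, 267 and 264 CPM in WT. PT1 read 122, 145 and 111 CPM in OE and 148, 142 and 131 CPM in WT. Both overlapped between the genotypes.

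The genes that report a phosphate shortage most strongly gave no offset in OE. IPS1 read 0.0596, 0.0642 and 0.188 CPM in OE, 203, 98.4 and 426 CPM in Ko1, and 0, 0 and 0.380 CPM in WT. PAP10a, a secreted purple acid phosphatase, read 86.3, 74.5 and 94.3 CPM in OE, 515, 482 and 659 CPM in Ko1, and 74.2, 84.4 and 83.2 CPM in WT. In both genes the OE range overlapped that of WT while Ko1 stood above. GDPD2, a glycerophosphodiester phosphodiesterase, read 18.9, 11.2 and 23.2 CPM in OE, 495, 536 and 887 CPM in Ko1, and 11.3, 18.6 and 14.3 CPM in WT. SQD2, which makes sulfolipid in place of phospholipid, read 92.1, 76.5 and 79.3 CPM in OE and 99.4, 91.9 and 92.4 CPM in WT. For the upstream genes, PHR2 read 81.3, 88.3 and 78.9 CPM in OE and 86.1, 85.3 and 89.6 CPM in WT, and the ubiquitin-conjugating enzyme gene PHO2 averaged 72.1 ± 13.7 CPM in OE and 69.3 ± 14.2 CPM in WT (SD, n = 3 each). OE and WT overlapped for both.

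**Figure D1:**
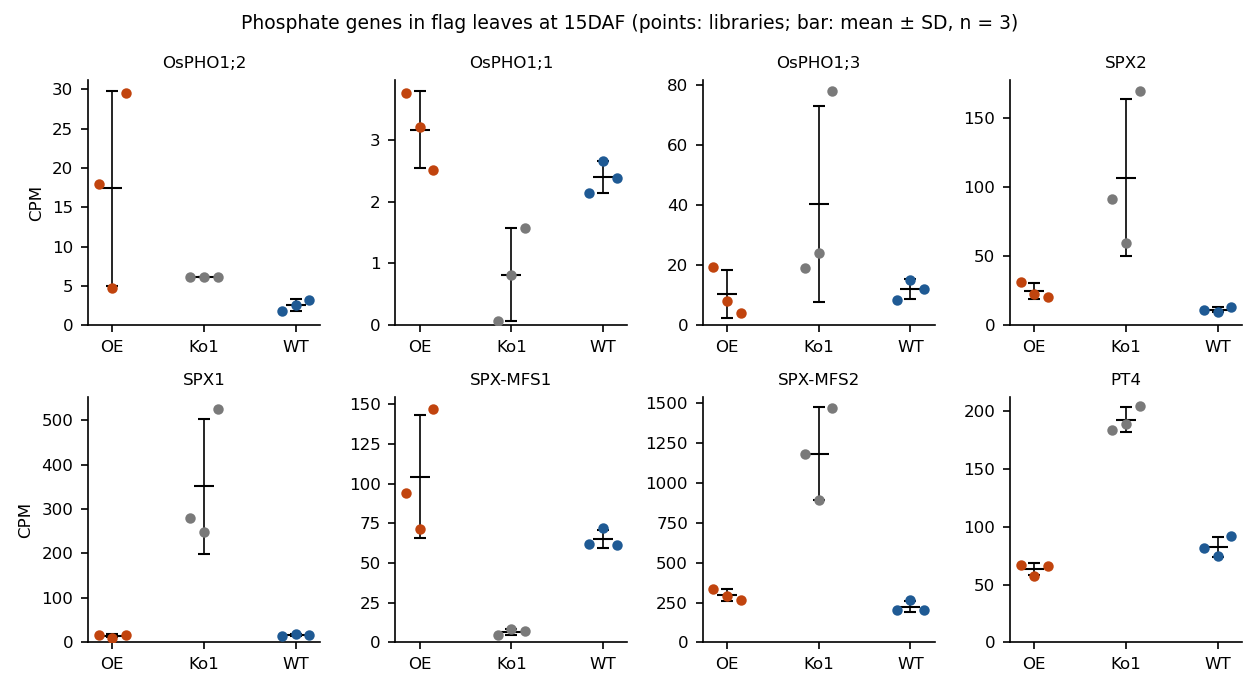
CPM of 8 phosphate genes in each 15DAF library of OE, Ko1 and WT (points) with the group mean ± SD (bars), each panel on its own axis. OsPHO1;2 spreads from 4.75 to 29.5 CPM in OE, while SPX1 and PT4 stand high in Ko1 and stay near WT in OE.

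Over the whole leaf transcriptome OE and WT differed at few genes. Of 19496 genes tested, 27 were called at an edgeR adjusted p under 0.05 (0.138%), 11 higher in OE (0.0564%) and 16 lower (0.0821%). All 27 had a log2 fold change of at least 1 in size. At an unadjusted p under 0.05 there were 1001 genes (5.13%), and 87.7% of all genes had a log2 fold change under 0.5 in size. In the same fit Ko1 against WT, which shares the 3 WT libraries, called 4020 genes (20.6%), 2278 higher (11.7%) and 1742 lower (8.94%).

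The number of genes called moved with the libraries fitted, the genes tested and the tool. Fitting only the 6 OE and WT libraries called 52 of 18723 genes (0.278%), 23 higher (0.123%) and 29 lower (0.155%). DESeq2 called 66 (0.339%), 35 higher (0.180%) and 31 lower (0.159%). Each of these lists held all 27. Fitting all 18 libraries called 5 of 20437 (0.0245%), 4 higher (0.0196%) and 1 lower (0.00489%), all among the 27. Without the library labelled WT 5DAF replicate 3 the fit of the other 17 libraries called 29 (0.139%), 12 higher (0.0574%) and 17 lower (0.0813%), of which 25 were shared with the 27. Leaving out 1 OE or WT library at a time called 20 to 31 genes, and 20 of the 27 passed in all 6 of these fits.

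**Figure D2:**
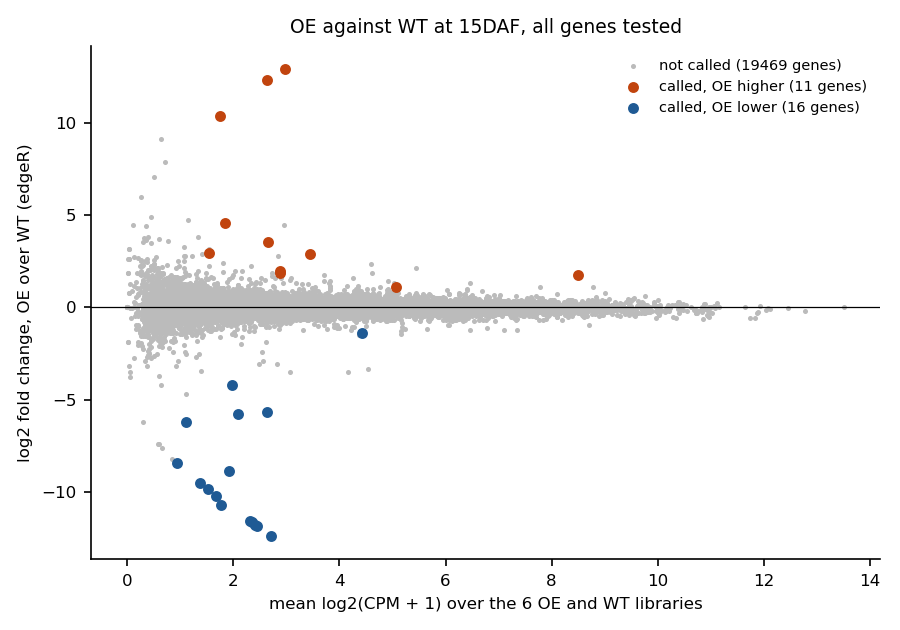
Log2 fold change of OE over WT at 15DAF (vertical) against mean level as log2(CPM + 1) (horizontal) for the 19496 genes tested, with called genes in colour. The 11 higher and 16 lower genes stand away from a cloud centred on 0.01, and most of them have low or middle levels.

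The called genes fell into 2 kinds. Of the 27, 15 had at most 3 counts over all 3 libraries of one genotype, and 12 were read in both. A count by rule described the first kind, with no test: at least 10 counts in every library of one genotype and 0 in every library of the other. Of 18228 loci, 19 met it (0.104%), of which 14 were read in WT only (0.0768%) and 5 in OE only (0.0274%). Of the WT-only loci 10 were called, and of the OE-only loci 3. Folds against a genotype at 0 are lower bounds, with a floor of 3 counts summed over its 3 libraries as the divisor.

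The locus with the smallest adjusted p among those read in WT only encodes a putative amino acid permease, a membrane carrier family that moves amino acids into cells. LOC_Os04g45950 (chromosome 4, 27214090–27218840) had 0 counts in all 3 OE libraries and 378, 441 and 557 counts in WT, so it was at least 469-fold lower in OE (edgeR adjusted p = 3.43e-05). Ko1 had 1, 0 and 0 counts there. The retrotransposon locus LOC_Os05g45160 (chromosome 5, 26218549–26222589) had 0 counts in OE and in Ko1 and 593, 576 and 817 counts in WT, at least 677-fold lower in OE. The CACTA transposon locus LOC_Os10g20280 (chromosome 10, 10197499–10201059) had 0 counts in OE and in Ko1 and 368, 478 and 452 in WT, at least 443-fold lower. All 3 loci were thus read in each WT library and in no OE library.

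Chromosome 8 holds 6 of the 14 WT-only loci. The Mutator transposon locus LOC_Os08g33550 (20948959–20951695) had 0 counts in OE and 333, 371 and 489 counts in WT, at least 407-fold lower. LOC_Os08g33580 (20964843–20967362), annotated as a zinc knuckle family protein, had 0 counts in OE and 146, 133 and 158 in WT, at least 149-fold lower. These 2 loci are 13.1 kb apart with 0 tested genes between them. The 4 other WT-only loci on chromosome 8 are the retrotransposon loci LOC_Os08g31010 and LOC_Os08g07900, the CACTA locus LOC_Os08g27980 and LOC_Os08g37080, of which the first pair were called.

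Chromosome 10 holds 3 WT-only loci. Besides LOC_Os10g20280 they are LOC_Os10g30240 and LOC_Os10g21970, both annotated as expressed proteins, at least 383-fold and 93.5-fold lower in OE. LOC_Os04g11050, another expressed protein, was at least 214-fold lower, but its WT counts of 280, 47 and 300 were uneven and it was not called without WT replicate 3 (edgeR adjusted p = 0.0832). LOC_Os10g21970 was not called without WT replicate 2 or without WT replicate 3 (up to 0.0886). LOC_Os08g07900, at 35, 45 and 46 counts in WT, was called in no leave-one-out fit (0.0962 to 0.339). LOC_Os02g32900 and LOC_Os02g12470 on chromosome 2 were not called.

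Nearly silent rather than silent in OE were a retrotransposon locus and a leucine-rich repeat gene. LOC_Os08g13080 (chromosome 8, 7764582–7774856) read 0.0596, 0 and 0 CPM in OE and 14.3, 13.4 and 12 CPM in WT, a count ratio of 633 with a 95% counting interval of 113 to 25061 (edgeR adjusted p = 0.000235). LOC_Os07g31840 (chromosome 7, 18914944–18920560) read 0.0596, 0.0642 and 0 CPM in OE and 4.28, 4.08 and 2.44 CPM in WT, a count ratio of 84.4 with an interval of 23.0 to 703. The second was called with all libraries (edgeR adjusted p = 0.0119) and in none of the 6 fits that left 1 out (0.0579 to 0.115). Both loci read 0 CPM in every Ko1 library at 15DAF. Intervals and floors cover counting error only.

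Of the loci read in OE only, the most strongly read encodes a putative ureide permease, a carrier family known in Arabidopsis for moving allantoin and related nitrogen-rich compounds. LOC_Os12g31850 (chromosome 12, 19161734–19166420) read 61.4, 68.6 and 52.4 CPM in OE, 61.3, 48.4 and 59.1 CPM in Ko1 and 0 in every WT library. It was at least 955-fold higher in OE than in WT (edgeR adjusted p = 1.92e-06), with OE and Ko1 at like levels. This locus had the smallest adjusted p of all 19496 genes, and it was the 1 tested member of the 3 ureide permease genes in the table.

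In OE 3 retrotransposon loci were read that had 0 counts in both other genotypes at 15DAF. LOC_Os06g05230 (chromosome 6, 2343537–2349553) read 24.0, 39.5 and 54.5 CPM in OE, at least 615-fold above WT (edgeR adjusted p = 0.00133). LOC_Os03g31560 (chromosome 3, 18004456–18011507) read 7.33, 12.5 and 11.6 CPM in OE, at least 163-fold above WT (edgeR adjusted p = 0.00259). LOC_Os11g08610 had 35, 12 and 41 counts in OE and was not called (0.193). The other OE-only locus, LOC_Os11g35620, had 21, 14 and 15 counts in OE, 30, 20 and 2 in Ko1 and 0 in WT, and was not called either (0.417). Retrotransposon and transposon loci belong to repeated families, so reads from near-identical copies may have been split between loci and these values are uncertain.

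The 19 loci were then read in the 5DAF libraries, which had no part in choosing them. At the 14 WT-only loci the 3 OE 5DAF libraries had 0 counts, and WT 5DAF replicates 1 and 2 had 2671 and 2618 counts with reads at all 14. The library labelled WT 5DAF replicate 3 had 0 counts at all 14, as the 3 Ko1 5DAF libraries did. At the 5 OE-only loci the OE 5DAF libraries had 607, 754 and 753 counts, and WT 5DAF replicates 1 and 2 had 0. The library labelled WT 5DAF replicate 3 had 620 counts there, at the 2 loci also read in Ko1, whose 5DAF libraries had 396 to 652 counts. The 3 retrotransposon loci had 0 counts in all Ko1 and WT libraries of both stages.

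**Figure D3:**
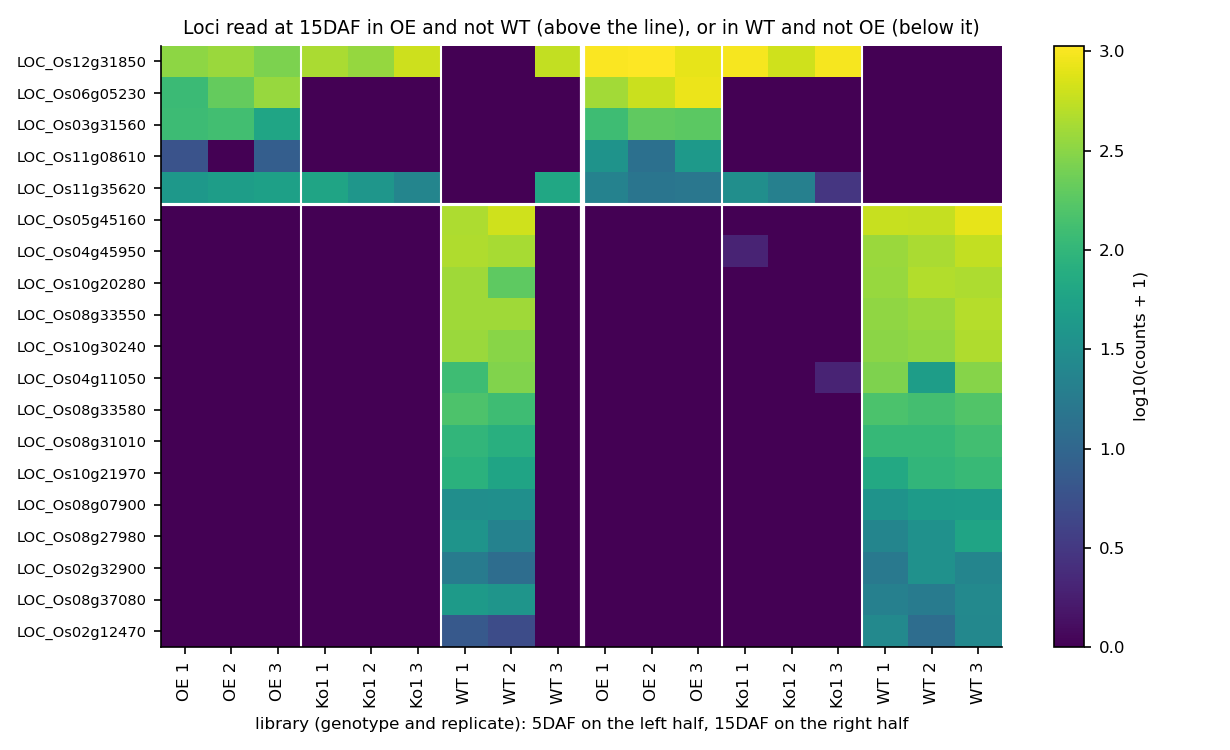
Counts, shown as log10(counts + 1), of the 19 loci read in OE only or in WT only at 15DAF (rows) in all 18 libraries (columns, 5DAF left and 15DAF right, in the order OE, Ko1, WT). The WT-only rows are dark in OE and Ko1 at both stages and also in the library labelled WT 5DAF replicate 3, which has 0 counts at all 14.

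Both genotypes gave reads for 12 called genes, 8 higher in OE and 4 lower. The most highly expressed was PRR73, a pseudo-response regulator of the circadian clock. PRR73 (LOC_Os03g17570, chromosome 3, 9759479–9768690) read 714, 762 and 534 CPM in OE, 1095, 899 and 1049 CPM in Ko1, and 196, 242 and 162 CPM in WT. OE rose 3.35-fold over WT, with means of 670 ± 120 and 200 ± 40.2 CPM (SD, n = 3 each), a log2 fold change of 1.76 with an SE of 0.19 (edgeR adjusted p = 0.00214). It was the 1 called gene of 13 clock genes tested, a list whose median was 0.01. Its paralogue PRR37 read 299, 280 and 220 CPM in OE and 270, 289 and 217 CPM in WT. GIGANTEA averaged 1969 ± 240 CPM in OE and 1777 ± 104 CPM in WT, and LHY, a morning-phase MYB factor, 81.7 ± 16.4 CPM in OE and 99.3 ± 5.58 CPM in WT (SD, n = 3 each). None of these 3 separated the genotypes.

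Enzyme genes made up another 3 of the higher set. LOC_Os06g48560, annotated as a transferase family protein (chromosome 6, 29381137–29382655), read 35, 22.7 and 20.0 CPM in OE, 33.0, 25.3 and 31.3 CPM in Ko1, and 2.92, 3.54 and 4.18 CPM in WT, which is 7.32-fold higher in OE than in WT (edgeR adjusted p = 0.000356). The peroxidase precursor gene LOC_Os07g48020 (chromosome 7, 28673754–28675433) read 9.59, 8.54 and 7.85 CPM in OE, 2.64, 2.59 and 0.910 CPM in Ko1, and 0.214, 0.544 and 0.325 CPM in WT, 24.0-fold higher in OE than in WT (edgeR adjusted p = 0.00175). Class III peroxidases oxidise phenolics in the cell wall. The other 28 tested members of that family did not pass, and 23 of all 29 had negative fold changes. The cytochrome P450 gene LOC_Os07g33620 read 3.22, 4.62 and 5.53 CPM in OE, 2.26, 2.44 and 1.15 CPM in Ko1, and 0.713, 0.408 and 0.597 CPM in WT, 7.78-fold higher in OE than in WT (edgeR adjusted p = 0.0237). It lost its call in 5 of the 6 leave-one-out fits (up to 0.232).

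The other 4 higher genes have less specific annotations. LOC_Os11g02720, an expressed protein (chromosome 11, 882110–885904), read 16.7, 14.5 and 15.8 CPM in OE, 0.314, 0.962 and 0.788 CPM in Ko1, and 1.5, 1.36 and 1.25 CPM in WT, 11.5-fold higher in OE than in WT (log2 3.53, SE 0.31, edgeR adjusted p = 0.000525). LOC_Os05g11120 encodes a prenylated rab acceptor of the kind that acts in vesicle traffic. It read 12.8, 10.5 and 11.6 CPM in OE, 18.4, 22.4 and 18.5 CPM in Ko1, and 3.28, 2.99 and 3.58 CPM in WT. That is 3.55-fold higher in OE than in WT (edgeR adjusted p = 0.00133). Both had OE libraries close together and far from WT. The retrotransposon locus LOC_Os12g43850 read 8.4, 16.8 and 12.6 CPM in OE and 2.28, 4.35 and 3.09 CPM in WT (3.89-fold, edgeR adjusted p = 0.0272). Ko1 read 18.363, 17.985 and 19.955 CPM there. At LOC_Os05g11120 and LOC_Os12g43850 every Ko1 library thus lay above every OE library. The wall-associated kinase gene OsWAK60 (LOC_Os04g30240), of a receptor family that binds cell-wall pectin, read 58.3, 44.6 and 41.6 CPM in OE, 33.8, 30.9 and 22.7 CPM in Ko1, and 20.7, 22.8 and 23.5 CPM in WT (2.16-fold, edgeR adjusted p = 0.0425). The last 2 are the least secure: the retrotransposon locus lost its call in 4 of the 6 leave-one-out fits (up to 0.271) and OsWAK60 in all 6 (0.0773 to 0.384).

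Of the genes read in both genotypes 4 fell in OE. The F-box gene LOC_Os10g41838 (chromosome 10, 22516025–22517963), of a family that picks proteins for degradation, read 0.298, 0.578 and 0.565 CPM in OE, 1.51, 0.148 and 0.485 CPM in Ko1, and 24.9, 24.6 and 25.9 CPM in WT, 52.3-fold lower in OE than in WT (log2 −5.68, SE 0.51, edgeR adjusted p = 0.000595). LOC_Os04g58050, an expressed protein (chromosome 4, 34573416–34575062), read 0.298, 0.0642 and 0.377 CPM in OE, 0.629, 0 and 0.243 CPM in Ko1, and 11.5, 15.6 and 14.7 CPM in WT, 56.6-fold lower in OE than in WT (edgeR adjusted p = 0.00238). These 2 were nearly silent in OE. The retrotransposon locus LOC_Os10g34290 read 0.596, 0.449 and 0.440 CPM in OE, 0.629, 0.740 and 0.182 CPM in Ko1, and 9.41, 10.5 and 8.08 CPM in WT (18.9-fold lower in OE than in WT, edgeR adjusted p = 0.00133). LOC_Os08g38800, also a retrotransposon locus, read 10.4, 13.7 and 14 CPM in OE, 9.87, 8.59 and 8.49 CPM in Ko1, and 32.3, 34.8 and 31.9 CPM in WT (2.60-fold lower in OE than in WT, edgeR adjusted p = 0.00371). At all 4 genes Ko1 also lay below every WT library.

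**Figure D4:**
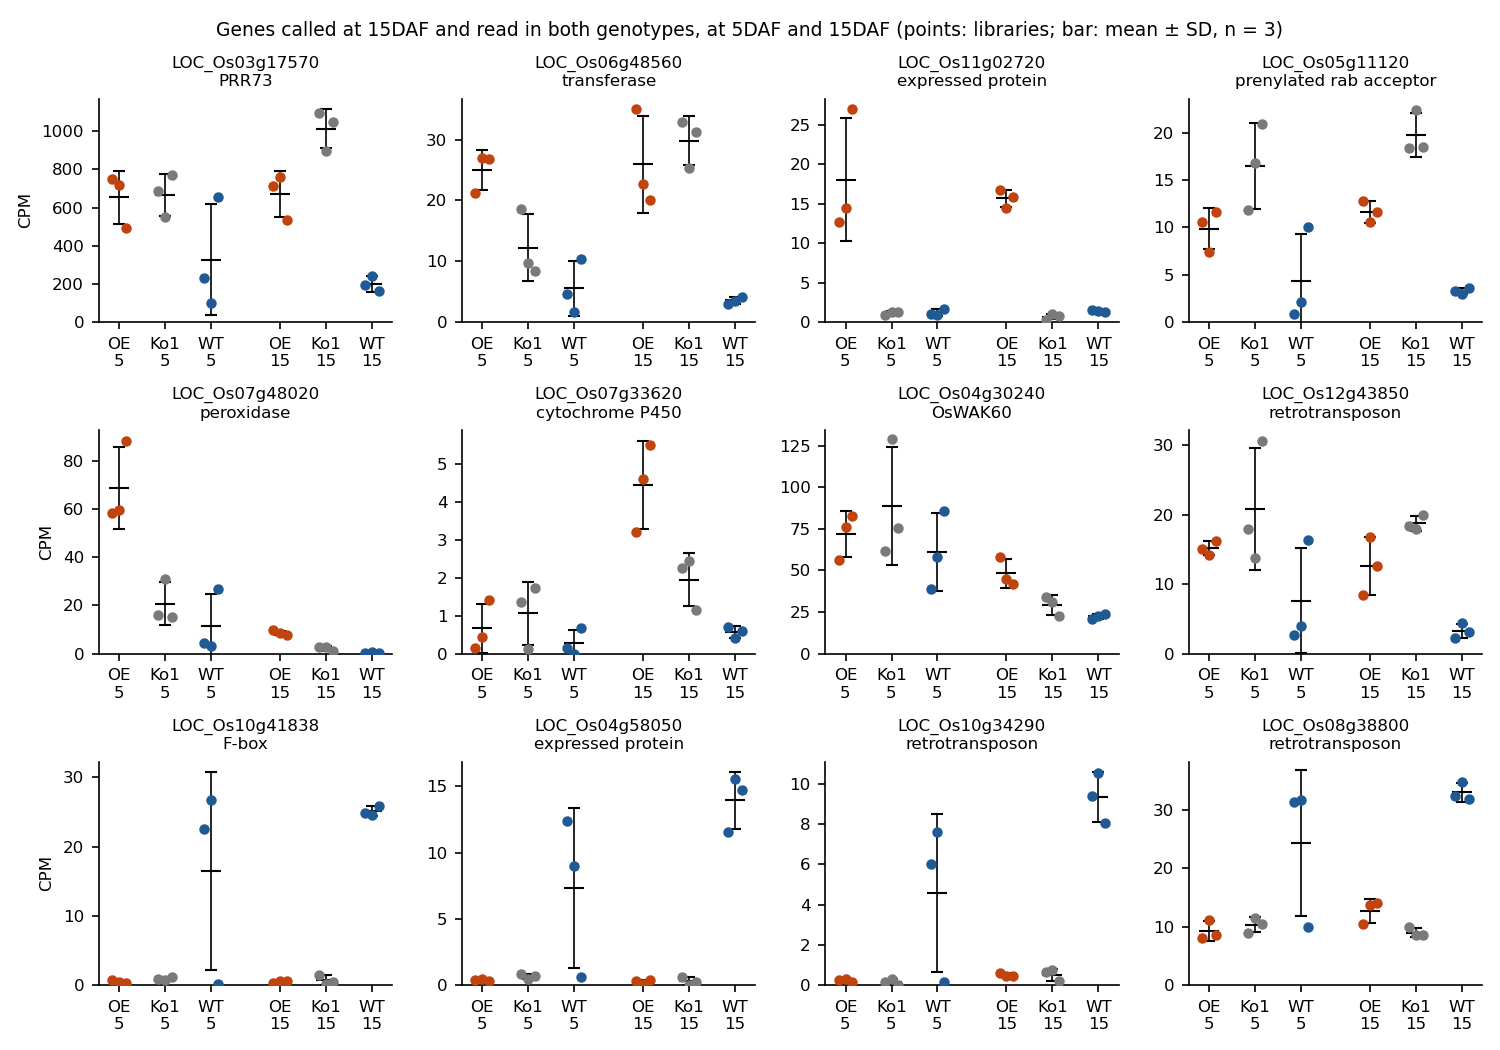
CPM of the 12 called genes read in both OE and WT, shown in OE, Ko1 and WT at 5DAF and 15DAF, as library values (points) with mean ± SD (bars), each panel on its own axis. At 15DAF the OE and WT points do not overlap in any panel, and at 5DAF 1 WT point, the library labelled replicate 3, often lies with OE.

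The genes called lower were most numerous on chromosomes 8 and 10. Of the 16, 6 lie on chromosome 8 and 5 on chromosome 10, which hold 1291 and 997 of the tested genes, and 0 genes called higher lie on either. Chromosomes 1, 2 and 9 held no called gene. Apart from the pair 13.1 kb apart on chromosome 8, neighbouring called or one-genotype loci were at least 1083 kb apart with other tested genes between them. The genome build of these coordinates is not stated in the labels or the table.

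The 5DAF leaves of the same lines gave a second reading of the 27 genes in libraries that the 15DAF test did not use. With all 9 libraries of that stage 3 genes were called for OE against WT (0.0155%), 2 higher (0.0103%) and 1 lower (0.00516%), 1 of them among the 27. Without the library labelled WT 5DAF replicate 3 there were 28 (0.141%), 8 higher (0.0404%) and 20 lower (0.101%). Called at both stages were 19 genes, 70.4% of the 27 and 67.9% of the 28, all in the same direction. Without that library all OE 5DAF values lay beyond the WT values in the 15DAF direction for 26 of the 27 (96.3%), against 8.37% of all genes tested, and with it for 6 (22.2%), against 4.4%. Among the 26, the P450 gene LOC_Os07g33620 was barely apart and near the floor. Its lowest OE 5DAF library read 0.152 CPM and WT 5DAF replicate 1 read 0.138 CPM, and it was not called at 5DAF.

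PRR73 and the ureide permease show how that library moves the 5DAF values. PRR73 read 750, 719 and 494 CPM in OE at 5DAF, while WT replicates 1 and 2 read 229 and 98.5 CPM and the library labelled WT replicate 3 read 656 CPM. LOC_Os12g31850 read 24.9, 27.7 and 21.0 CPM in OE at 5DAF, while WT replicates 1 and 2 read 0 and that library read 37.0 CPM. In both genes this library lay within or above the OE range. The peroxidase LOC_Os07g48020 was higher at the earlier stage, at 58.3, 59.5 and 88.0 CPM in OE and 4.41, 2.91 and 26.6 CPM in WT. The exception among the 27 was OsWAK60, which at 5DAF read 56.2, 76.0 and 82.7 CPM in OE and 39.0, 57.9 and 85.6 CPM in WT.

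Whether the OE difference changed between the stages was tested directly over all 18 libraries. No gene passed edgeR's test of that change, although 1226 had an unadjusted p under 0.05, and DESeq2 called 13. Leaving out 1 library at a time, edgeR called 0 to 3 genes, with 3 when WT 5DAF replicate 1 was dropped. No gene of the 27 passed this test in edgeR over all 18 libraries, where the smallest adjusted p among them was 0.803. Those 18 include WT 5DAF replicate 3, which stood apart from its group. The stage test without that library was among the fits that left out 1 library, so it called at most 3 genes. For OE against WT at 15DAF, edgeR called 5 genes with all 18 libraries and 29 once replicate 3 was dropped. A lack of calls in the stage test does not show that the OE difference was the same at both stages.

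No gene of the photosynthetic light reactions passed, yet most lay slightly below WT. Of 44 genes tested, 38 had a negative log2 fold change and 6 a positive one, against 47.6% negative over all genes, and the median was −0.33, beside 0.01 over all genes. In 20 of them all OE libraries lay below all WT libraries (8.22% over all genes) and in 1 above (7.32% over all genes). At an unadjusted p under 0.05 there were 10 (5.13% over all genes). The photosystem II 10 kDa polypeptide gene LOC_Os08g10020, which belongs to the oxygen-evolving side of the complex, read 3178, 2908 and 2878 CPM in OE, 4534, 3507 and 3474 CPM in Ko1, and 4640, 3723 and 5283 CPM in WT. Its groups did not overlap, and the log2 fold change was −0.59 with an SE of 0.18 (edgeR adjusted p = 0.808). A photosystem I reaction center subunit gene, LOC_Os12g08770, read 282, 248 and 257 CPM in OE and 368, 354 and 433 CPM in WT.

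Members of the light-reaction list did not all lie low. The chlorophyll a/b-binding gene LOC_Os09g17740, which harvests light, read 3778, 4181 and 4913 CPM in OE and 4804, 3991 and 5074 CPM in WT. Another, LOC_Os04g59440, had the highest fold change of the list at 0.62, with 201, 353 and 234 CPM in OE and 162, 217 and 138 CPM in WT. Both overlapped. Leaving out 1 OE or WT library at a time moved the list's median between −0.43 and −0.28. At 5DAF the median was 0.06 with all libraries and −0.14 without the library labelled WT replicate 3. In the same 15DAF fit the Ko1 median against WT was 0.04.

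Carbon fixation and the breakdown of the leaf showed smaller offsets. The 38 Calvin-Benson genes had a median of −0.06, the 19 photorespiration genes 0.01, the 15 chlorophyll synthesis genes −0.21 and the 11 senescence and chlorophyll breakdown genes −0.03, and 0 members of these lists passed. The Rubisco small subunit gene LOC_Os12g19381 averaged 1521 ± 302 CPM in OE and 1884 ± 171 CPM in WT (SD, n = 3 each). CRD1, a magnesium-protoporphyrin cyclase of chlorophyll synthesis, read 740, 596 and 610 CPM in OE and 850, 737 and 812 CPM in WT. The chlorophyll b reductase gene NYC1 averaged 474 ± 54.9 CPM in OE and 516 ± 33.9 CPM in WT (SD, n = 3 each). Cytosolic glutamine synthetase GS1;1, which reassimilates ammonium as leaves age, read 656, 597 and 628 CPM in OE and 435, 512 and 456 CPM in WT, with no overlap, as for 15.5% of all genes (log2 0.43, SE 0.13, edgeR adjusted p = 0.808).

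Starch and sucrose genes leaned the other way, with a like median in Ko1. Of 31 tested, 23 had a positive and 8 a negative log2 fold change (52.3% positive over all genes), the median was 0.20 and 0 passed. The Ko1 median against WT in the same 15DAF fit was 0.19. Leaving out 1 OE or WT library at a time moved the OE median between 0.13 and 0.25, and it was 0.16 without OE replicate 2. At 5DAF the OE median was −0.04 with all libraries and −0.09 without the library labelled WT replicate 3. AGPL1, a large subunit of ADP-glucose pyrophosphorylase, the entry step of starch synthesis, read 51.3, 8.92 and 135 CPM in OE and 12, 11.8 and 15.3 CPM in WT (log2 2.33, SE 0.70, edgeR adjusted p = 0.808). OE replicate 2 lay below every WT library, and without it AGPL1 passed with a log2 fold change of 2.84 (edgeR adjusted p = 0.0425). AGPS1, a small subunit, read 41.9, 15.4 and 64.3 CPM in OE and 19.4, 24.1 and 28.5 CPM in WT. GBSSII, the granule-bound starch synthase of leaves, read 550, 317 and 847 CPM in OE and 354, 398 and 417 CPM in WT. OE replicate 2 was again the lowest of all 6 libraries in both, as it was the lowest OE library for OsPHO1;2. A link between these starch genes and the level of OsPHO1;2 was not tested.

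Within the starch list all OE libraries lay above all WT libraries in 6 of the 31 genes (7.32% over all genes) and below in 1 (8.22% over all genes). BEIIa, a branching enzyme, read 102, 84.8 and 177 CPM in OE and 54.7, 70.1 and 59.9 CPM in WT (log2 0.99, SE 0.44, edgeR adjusted p = 0.963). SSIIIb, a soluble starch synthase, read 391, 348 and 432 CPM in OE and 298, 333 and 286 CPM in WT. The sucrose transporter gene SUT2 read 105, 105 and 138 CPM in OE and 95.1, 95.5 and 104 CPM in WT, while SUT1, which loads sucrose into the phloem, averaged 38.2 ± 11.7 CPM in OE and 34.4 ± 7.18 CPM in WT (SD, n = 3 each). None passed the test.

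**Figure D5:**
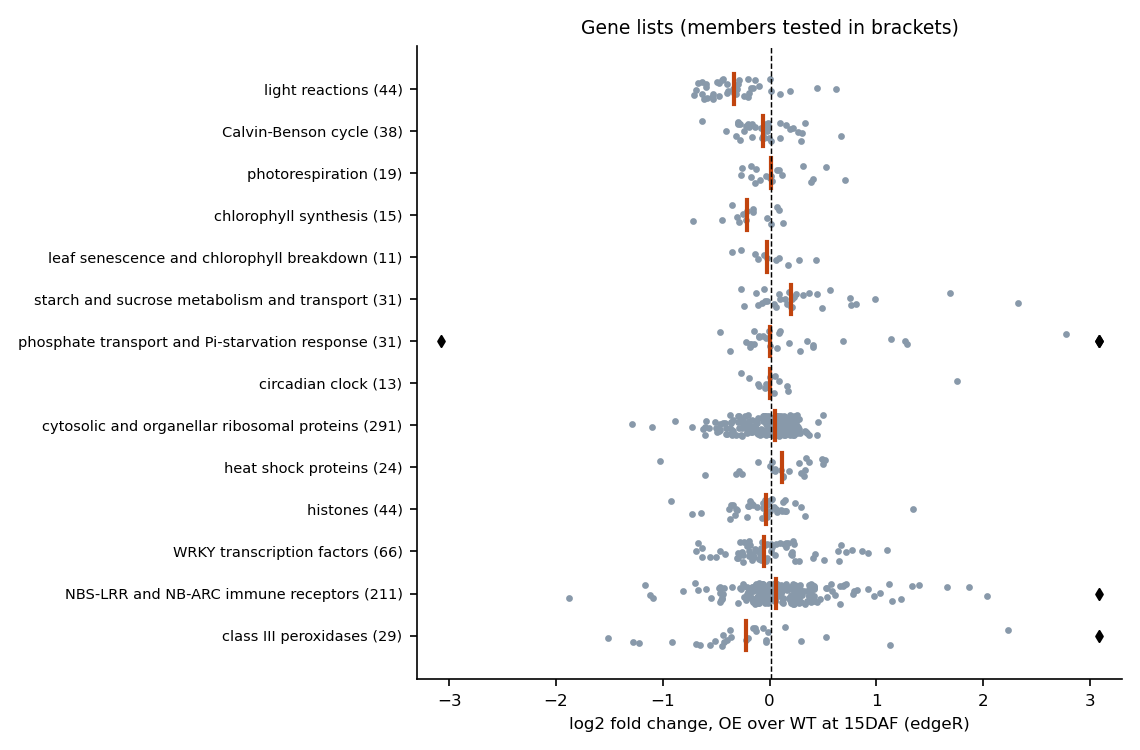
Log2 fold change of OE over WT at 15DAF for the tested members of 14 gene lists (points), with the list median (orange bar) and the median of all 19496 genes (dashed line). Members beyond 3 log2 units are drawn as diamonds at the edge. The medians lie at −0.33 for light reactions, −0.22 for class III peroxidases, −0.21 for chlorophyll synthesis and 0.20 for starch and sucrose. Those of the other lists lie nearer 0.

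Few members of the other gene families were called. Outside the transposon lists, 6 of 2506 list members passed (0.239%, beside 0.138% of all genes), 5 higher and 1 lower, namely PRR73, the peroxidase, the P450, OsWAK60, the ureide permease and the F-box gene. Retrotransposon loci gave 3 higher and 6 lower calls of 357 tested (2.52%), and DNA transposon loci 2 lower of 282 (0.709%). No member passed among 66 WRKY, 56 NAC, 108 MYB and 69 AP2/ERF transcription factor genes, 211 immune receptor genes of the NBS-LRR and NB-ARC class, 60 SHR5 and DUF26 receptor-like kinase genes, 24 heat shock genes, 44 histone genes and 291 ribosomal protein genes. Among these families DESeq2 called 1 AP2/ERF gene, 2 immune receptor genes and 1 SHR5 or DUF26 gene.

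Genes outside the 27 passed when the 6 OE and WT libraries were fitted alone, and the following were chosen after their values were seen. LTPL114 and LOC_Os06g15750 also passed with DESeq2 (adjusted p = 8.16e-06 and 3.03e-05) and without the low-count filter (edgeR adjusted p = 0.0107 and 0.0228). The lipid-transfer protein gene LTPL114 (LOC_Os03g01300) read 112, 46.9 and 119 CPM in OE, 16.5, 19.9 and 7.76 CPM in Ko1, and 16.9, 20.6 and 26.5 CPM in WT (edgeR adjusted p = 0.124 with 9 libraries and 0.0241 with 6). The NB-ARC resistance gene LOC_Os04g43440 read 35.3, 66.7 and 34.6 CPM in OE and 13.8, 14.8 and 9.33 CPM in WT (0.670 and 0.0236). The genotypes did not overlap in either, as was so for 15.5% of all genes. The P450 gene LOC_Os09g10340 lay on the other side, at 20.4, 14.1 and 30.03 CPM in OE, 95.4, 116 and 305 CPM in Ko1, and 56.0, 51.1 and 67.5 CPM in WT (0.755 and 0.0436). The NB-ARC gene LOC_Os06g15750 read 2.44, 3.59 and 1.82 CPM in OE and 11.5, 10.7 and 6.83 CPM in WT (0.0854 and 0.0378).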

How the data were processed

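RNA of 18 rice flag leaf libraries was sequenced from standard Illumina libraries, per the labels' protocols. The authors deposited raw counts per gene and library and FPKM values (per kilobase and per library total), per the file headers. The counts were tested, and FPKM served only to check them. The submitters' processing notes name Bowtie 0.12.2 and mm8, which is a mouse build, whereas the table lists rice loci. The rice build, counting tool and strand use are not stated.

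The 9 libraries of 15DAF were fitted with 3 group means (edgeR 4.0.16, quasi-likelihood, TMM, filterByExpr, R 4.3.3), two-sided, with Benjamini-Hochberg adjustment over all 19496 genes and adjusted p under 0.05. The tests were tried on simulated data. CPM is scaled to the TMM library size over 18 libraries. Alternatives were DESeq2 1.42.0, RLE factors, no filter, other library sets, a replicate block, adjusted p under 0.01 and leaving out libraries. Genes were named by rule: OsPHO1;2, the most changed called members of 36 lists (or their 2 most expressed if none was called), the 12 most changed called genes each way, and the 4 one-genotype loci each way with most counts. Phosphate, starch, clock and other genes beyond these were chosen after their values were seen. The comparison, lists and rules were chosen with earlier results of these data known, and some description words that define lists were tightened afterwards. No list was tested as a set. Of 130 list loci 129 were in the table.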

Additional observations from a re-analysis of the deposited data

How the results depend on the processing

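Of 27 genes called (11 higher, 16 lower), fitting the 6 OE and WT libraries gave 52 (23 and 29), all 18 libraries 5 (4 and 1) and DESeq2 66 (35 and 31). RLE factors gave 27, no filter 33, adjusted p under 0.01 21, and the 17-library fit, chosen after seeing the data, 29. Leaving out 1 library gave 20 to 32 (8 to 14 higher, 12 to 21 lower). Same-numbered libraries of OE and WT did not deviate together (correlations −0.0645, 0.0332 and −0.00355 over genes), so they were not treated as pairs; with the replicate block 21 genes were called.

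By list, the 6-library fit (0.278% of all genes) called 1 AP2/ERF, 6 DNA transposon, 3 immune receptor, 2 P450, 1 phosphate and 2 wall-associated kinase genes. The 9-library fit tested 69, 282, 211, 152, 31 and 72 genes of these lists, in that order. DESeq2 (0.339% of all genes) called 1 AP2/ERF, 5 DNA transposon, 2 immune receptor, 1 SHR5 or DUF26, 1 early light-induced, 1 phosphate and 2 wall-associated kinase genes. The SHR5 or DUF26 list had 60 tested genes and the early light-induced list 5. No filter called 4 DNA transposon, 1 immune receptor and 1 phosphate gene. All 18 libraries (0.0245% of all genes) called 2 retrotransposon genes and 0 DNA transposon, F-box, clock, peroxidase, P450, ureide permease and wall-associated kinase genes. The block, adjusted p under 0.01 and the 17-library fit (0.139% of all genes) each called 0 P450 and 0 wall-associated kinase genes, and the 17-library fit 1 phosphate gene. Leaving out 1 library called 2 to 4 DNA transposon, 0 to 1 P450, 0 to 1 phosphate, 0 to 1 starch and 0 to 2 wall-associated kinase genes.

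OsPHO1;2 passed with DESeq2 (log2 2.79), no filter (2.78) and the 17-library fit (2.77), and ran from 2.15 to 3.22 with 1 library left out. Loci read in OE only numbered 3 at a minimum of 30 counts and 5 to 8 with 1 library left out, 8 without OE replicate 3. Those in WT only numbered 14 to 22, 22 without OE replicate 1. The stage test gave 13 genes with DESeq2 and 0 to 3 with 1 library left out, and 0 with the block. At 5DAF 28 genes were called without WT replicate 3, 19 of them among the 27. Single genes kept direction and side of the threshold in 2632 of their values under the alternatives, gained a call in 63 and lost it in 68, with 0 reversed. Causes were not tested. Depth limits the loci under about 1 CPM, where a few counts decide a call.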

Other observations

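An early light-induced protein gene, LOC_Os02g16560, whose family binds pigments in plastids under strong light, was read in 1 OE library and 2 Ko1 libraries at 15DAF. It read 13.2, 0 and 0 CPM in OE, 0, 13.3 and 14.7 CPM in Ko1 and 0 in all WT libraries at 15DAF, and 0 in all OE and WT libraries at 5DAF. DESeq2 called it (adjusted p = 7.03e-06) and edgeR did not (0.963). The expressed-protein locus LOC_Os05g36240 read 6.67, 0 and 0 CPM in OE and 19.2, 19.1 and 13.1 CPM in WT at 15DAF (edgeR adjusted p = 0.949). Both genes were chosen after their values were seen, and in both OE replicate 1 was the only OE library with reads.

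Outside the called genes, 2 genes of wall building and loosening had all OE libraries above all WT libraries, as 7.32% of all genes did. The cellulose synthase gene CESA1 (LOC_Os05g08370) read 32.7, 22.3 and 39.3 CPM in OE and 12.5, 18.4 and 16.2 CPM in WT (log2 1.01, SE 0.22, edgeR adjusted p = 0.310, DESeq2 0.0160). A beta-expansin gene, LOC_Os07g31390, of a family that loosens walls, read 7.03, 7.12 and 19.1 CPM in OE and 3.71, 2.79 and 2.66 CPM in WT (edgeR adjusted p = 0.310, DESeq2 0.00306). Both were chosen after their values were seen.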
